A study of Mus musculus with 64 samples.

Results

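Transcripts that differ between macrophages with and without the aryl hydrocarbon receptor (AhR) were looked for early after activation, with no ligand added. For this, RNA-seq libraries of Ahr-/- and Ahr+/+ bone marrow-derived macrophages (BMMs) were compared 3 h after activation with heat-killed Salmonella Enteritidis (hk S.E.). The libraries were chosen by their labels, 4 per genotype, and make up 8 of the 64 libraries of the series. All 8 cultures had been kept for 6 h in 0.01% of the solvent DMSO in place of a ligand and then received 10000000 hk S.E. per ml for 3 h. Bone marrow of 4 mice per genotype, aged 8 to 12 weeks, had been grown into macrophages in medium with 30% supernatant of L929 fibroblasts as the source of macrophage colony-stimulating factor. Ahr+/+ mice were female C57BL/6JRj animals. The Ahr-/- mice carried the deletion in every cell, came from another supplier and had been crossed back to C57BL/6JRj, over a number of generations that is not given. The sex of the Ahr-/- mice is not stated, but Xist, the RNA of the inactive X chromosome, was present in all 8 libraries (255 to 541 CPM, counts scaled to 1000000 per library) and the 4 Y-linked genes examined were at 0 in all of them.

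AhR is a transcription factor of the cytosol that binds flat aromatic molecules, among them pollutants and products of tryptophan. With a ligand bound it enters the nucleus, pairs with ARNT and binds DNA at the core motif GCGTG, where it switches on genes of xenobiotic metabolism such as Cyp1a1 and Nqo1. In macrophages it is known to rise on contact with bacterial products and to temper parts of the inflammatory response.

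The core motif was looked up in the promoters of the genes that differed between the genotypes, taking 300 bases around each start from RefSeq (GRCm38.p6). Nqo1, an oxidoreductase that detoxifies quinones, and Scin, an actin-severing protein, are shown because they were the AhR targets that passed the test, and Mmp8, a neutrophil collagenase that macrophages also make, and Spint1, an inhibitor of serine proteases, because their difference between the genotypes was among the largest. GCGTG or its reverse complement CACGC is in capitals. Scin has 1 copy, at position -35 from the start, Spint1 has 3, and Nqo1 and Mmp8 have none in this window.
Nqo1, chr8:107403156-107403455, minus strand: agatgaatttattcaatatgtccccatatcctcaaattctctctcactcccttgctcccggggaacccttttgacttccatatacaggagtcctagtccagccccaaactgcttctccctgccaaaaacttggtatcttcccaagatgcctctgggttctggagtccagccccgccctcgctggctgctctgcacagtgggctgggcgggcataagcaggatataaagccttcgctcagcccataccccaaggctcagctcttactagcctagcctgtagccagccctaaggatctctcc
Scin, chr12:40134179-40134478, minus strand: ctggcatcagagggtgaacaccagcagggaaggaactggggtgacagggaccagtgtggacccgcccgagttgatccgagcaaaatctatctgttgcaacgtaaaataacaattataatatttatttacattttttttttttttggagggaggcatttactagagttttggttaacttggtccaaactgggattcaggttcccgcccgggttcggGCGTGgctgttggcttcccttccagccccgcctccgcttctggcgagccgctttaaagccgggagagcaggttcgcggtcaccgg
Mmp8, chr9:7558179-7558478, plus strand: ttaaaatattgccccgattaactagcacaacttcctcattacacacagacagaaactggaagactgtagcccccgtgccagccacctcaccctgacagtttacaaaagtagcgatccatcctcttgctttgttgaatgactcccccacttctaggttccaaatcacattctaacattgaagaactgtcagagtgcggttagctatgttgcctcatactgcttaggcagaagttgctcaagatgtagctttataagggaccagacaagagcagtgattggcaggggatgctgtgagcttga
Spint1, chr2:119237110-119237409, plus strand: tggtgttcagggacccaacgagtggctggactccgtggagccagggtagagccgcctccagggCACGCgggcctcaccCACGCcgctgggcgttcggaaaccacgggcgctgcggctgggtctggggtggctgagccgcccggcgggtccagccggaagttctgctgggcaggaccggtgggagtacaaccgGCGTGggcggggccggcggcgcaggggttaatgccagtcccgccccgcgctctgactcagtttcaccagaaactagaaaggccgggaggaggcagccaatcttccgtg
Of all tested genes, 10017 had a promoter in this table, and 51.3% of these held GCGTG on either strand. The share was 61.7% of the 141 promoters of genes that were higher in Ahr-/- BMMs and 45.9% of the 194 promoters of genes that were lower. The longer motif GGGTGCAT, which does not contain GCGTG, was found in 0% and 1.03% of these promoters, against 0.399% of all. A match of letters does not show that AhR binds there.

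The libraries held 17469961 to 22641087 counts on genes in the Ahr+/+ group and 18852317 to 27603479 in the Ahr-/- group, and 14537 of 55487 genes passed the filter on low counts. Between 78.5% and 79.5% of the read pairs of the Ahr+/+ libraries were assigned to a gene, and fewer, 75.2% to 77.3%, in the Ahr-/- libraries. Within the Ahr-/- group, replicates 1 and 2 stood apart from replicates 3 and 4. On the first principal component, which held 29.1% of the variance, the Ahr+/+ libraries lay between 10.7 and 26.5, Ahr-/- replicates 1 and 2 at -31 and -49.7, and Ahr-/- replicates 3 and 4 at -0.0873 and 1.06. Ahr-/- replicates 3 and 4 also shared a signal of the collagen genes Col1a1 and Col1a2, which summed to 3.48 and 3.32 CPM there and to at most 0.346 CPM in each of the other 6 libraries. In addition, the labels give Ahr+/+ replicates 1 and 2 another series of library identifiers than the remaining 6 libraries. The part of these differences in the results was not tested. Of the 53 named genes that passed, 18 still passed without Ahr-/- replicates 1 and 2, 39 without Ahr-/- replicates 3 and 4, and 9 without Ahr+/+ replicates 1 and 2. The 10 macrophage markers were all measured and summed to 29700 to 35000 CPM in Ahr-/- and 32200 to 35400 CPM in Ahr+/+ BMMs, whereas B cell, NK cell and T cell markers summed to at most 12.8 CPM in any library and the erythroid markers to at most 0.0703 CPM.

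In Ahr-/- BMMs, 411 genes differed from Ahr+/+ BMMs at an adjusted p below 0.01 (DEGs), 2.83% of the genes tested. Of these, 177 (1.22%) were higher and 234 (1.61%) were lower without AhR. The lower DEGs had the larger changes, with a median difference of 0.91 on the log2 scale and 100 genes changed at least 2-fold, against a median of 0.51 and 22 genes among the higher DEGs. The median log2 fold change over all tested genes was 0.02. Protein-coding genes made up 166 of the higher and 231 of the lower DEGs. All 4 Ahr-/- libraries lay on one side of all 4 Ahr+/+ libraries for 163 of the higher and 217 of the lower DEGs, and this was so for 12.1% of all genes tested. In RNA of whole cultures, fewer cells of a type that makes a transcript and less transcript per cell cannot be told apart.

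**Figure D1:**
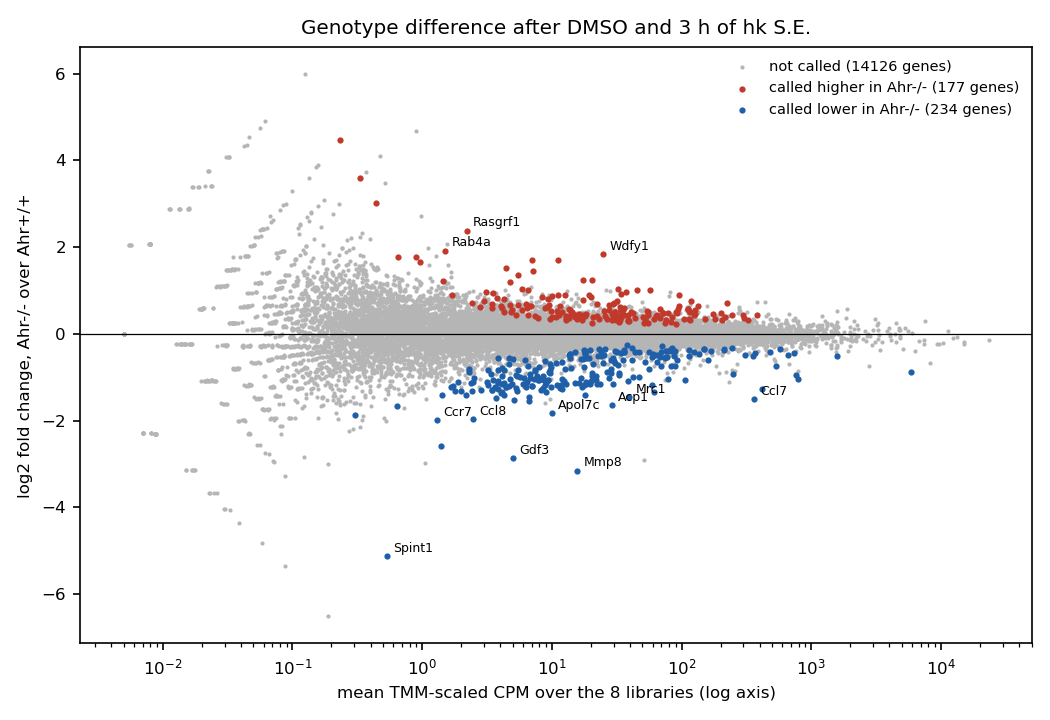
Mean level over the 8 libraries (CPM, horizontal, log axis) against the log2 fold change of Ahr-/- over Ahr+/+ BMMs (vertical) for the 14537 genes tested, 1 point per gene, with the 177 higher and 234 lower DEGs in colour and named genes labelled. Most genes lie around the median of 0.02, with a wider spread at low CPM, and of the DEGs 100 of the lower and 22 of the higher ones lie at least 2-fold from equal levels.

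How many genes passed depended on single libraries. Without Ahr-/- replicate 2 the number of DEGs was 122, without Ahr-/- replicate 1 it was 272, and without Ahr+/+ replicates 1, 2 and 4 in turn it was 262, 125 and 181. It was 47 without Ahr-/- replicates 1 and 2 together and 18 within the single identifier series, that is without Ahr+/+ replicates 1 and 2.

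Ahr itself (chr12:35497974-35535038 on GRCm38, minus strand) was detected in all 8 libraries. Its level was 13.1, 12.8, 12.9 and 12.8 CPM in the Ahr-/- BMMs and 9.77, 6.67, 7.13 and 4.46 CPM in the Ahr+/+ BMMs. All Ahr-/- libraries thus lay above all Ahr+/+ libraries, with a log2 fold change of 0.88 ± 0.21 (SE) and an adjusted p of 0.00453. The counts cover all exons of the gene and do not separate the deleted exon from the rest, so this value checks neither the deletion nor the protein. Leaving out any one of Ahr-/- replicates 1, 2 and 3 or Ahr+/+ replicates 2, 3 and 4 moved the adjusted p above the threshold, up to 0.0566 without Ahr+/+ replicate 4. The other 12 genes of the receptor's partner list, among them the dimerization partner Arnt and the chaperones Hsp90aa1 and Hsp90ab1, did not pass, and the list's median log2 fold change was -0.02. Nnt, a mitochondrial enzyme gene that is known to differ between C57BL/6 substrains, was between 0.192 and 0.623 CPM in the Ahr-/- and between 0.259 and 0.566 CPM in the Ahr+/+ BMMs, and these ranges overlap.

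The classical AhR battery was looked at next. Of 20 known targets, 13 passed the filter, 2 were lower in Ahr-/- BMMs and 0 were higher, where 1.61% of all genes were lower. The list's median log2 fold change was -0.54. Cyp1a1, Cyp1a2 and Cyp1b1, the cytochrome P450 enzymes that define the response, were at 0 in most libraries and at most 0.0915 CPM in any. Nqo1 stood at 4.30, 4.39, 6.62 and 5.37 CPM in Ahr-/- and at 9.56, 10.1, 12.8 and 8.34 CPM in Ahr+/+ BMMs. Scin was at 0.311, 0.503, 0.0882 and 0.320 CPM without AhR and at 0.844, 1.07, 1.11 and 0.841 CPM with it. For both genes every Ahr-/- library was below every Ahr+/+ library, and the log2 fold changes were -0.98 ± 0.25 for Nqo1 (adjusted p = 0.00999) and -1.66 ± 0.42 for Scin (adjusted p = 0.00962). Neither call was firm. Scin lost it whichever library was left out, with an adjusted p of up to 0.0567 without Ahr-/- replicate 3, and in limma-voom with the mouse as a random effect (0.0113). Nqo1 lost it without any library other than Ahr-/- replicate 3, up to 0.0648 without Ahr-/- replicate 2. Ahrr, the AhR repressor that AhR induces, was at 0.235 ± 0.084 CPM against 0.514 ± 0.112 CPM (mean ± SD, n = 4 each) with an adjusted p of 0.0793, and Tiparp, another classical target, was at 325 ± 93.5 against 399 ± 42.1 CPM with an adjusted p of 0.591. Among 17 antioxidant genes that depend on NRF2, a factor with targets in common with AhR, 1 was lower and 0 were higher, where 1.61% of all genes were lower. This was G6pdx, the entry enzyme of the pentose phosphate pathway. Its genotypes overlapped, with Ahr-/- replicate 1 at 149 CPM and Ahr+/+ replicate 3 at 147 CPM. G6pdx fell by 0.36 on the log2 scale (adjusted p = 0.00507), did not pass without Ahr-/- replicates 2, 3 or 4 or Ahr+/+ replicates 2 or 4, and reached 0.0374 without Ahr-/- replicate 2.

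Among the protein-coding DEGs, Spint1, Mmp8 and Gdf3 had the largest falls in Ahr-/- BMMs. Mmp8 (chr9:7558456-7568485, plus strand) was at 3.8, 2.75, 3.31 and 2.88 CPM in Ahr-/- BMMs and at 28.6, 34.4, 26.5 and 23.3 CPM in Ahr+/+ BMMs. The groups were far apart and the replicates of each close together, which gave a log2 fold change of -3.15 ± 0.23 with an adjusted p of 2.18e-15. Mmp8 is also a granule protein of neutrophils, and the other 11 markers of neutrophils and their precursors summed to 115 to 119 CPM in Ahr-/- and 111 to 261 CPM in Ahr+/+ BMMs. S100a8 and S100a9, the calprotectin subunits, and the granule genes Ngp, Ltf and Camp carry that sum. Their log2 fold changes were -0.82, -0.74, -0.48, -0.53 and -0.46, none of which passed in edgeR, and S100a8 was the one whose genotypes did not overlap, at 25.5 to 32.7 CPM without and 34.0 to 70.9 CPM with AhR (adjusted p = 0.0363). The defining genes Ly6g, Mpo, Elane, Prtn3 and Ctsg were at most 0.2812 CPM in any library. The part of neutrophil RNA in the difference of Mmp8 was not tested.

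Spint1 (chr2:119237362-119249527, plus strand) was at 0.0623, 0, 0.0441 and 0 CPM in Ahr-/- and at 0.773, 1.19, 1.38 and 0.841 CPM in Ahr+/+ BMMs. Reads were thus all but absent without AhR in each of the 4 libraries, with an adjusted p of 3.97e-10. The fitted log2 fold change of -5.12 depends on the prior count and is no measure of size. Gdf3, a growth factor of the TGF-beta family, was at 0.934, 2.01, 1.10 and 0.703 CPM against 6.47, 6.11, 9.41 and 13.8 CPM, a log2 fold change of -2.87 ± 0.34 (adjusted p = 7.53e-08). Its Ahr-/- libraries were all below its Ahr+/+ libraries.

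Further members of the protease list moved the same way. The list's median log2 fold change was -0.21. Of 19 matrix metalloproteinases and protease inhibitors tested, 4 were lower and 0 higher, where 1.61% of all genes were lower. Besides Mmp8 and Spint1 these were Mmp12, the elastase of macrophages, and Mmp27. Mmp12 was at 555, 537, 467 and 524 CPM without AhR and at 1019.6, 1053, 1051 and 908 CPM with it, so that the groups did not overlap (log2 fold change of -0.95 ± 0.17, adjusted p = 0.000142, and 0.0148 without Ahr+/+ replicates 1 and 2). Mmp27 (chr9:7571396-7581885), a neighbour of Mmp8 on the same strand, had a log2 fold change of -1.42 ± 0.35 (adjusted p = 0.00694), but Ahr-/- replicate 3, at 1.24 CPM, was above Ahr+/+ replicate 3, at 0.969 CPM. Its call was lost in limma-voom with the mouse as a random effect (0.0255) and without Ahr-/- replicates 1, 2 or 4 or Ahr+/+ replicates 1, 2 or 4, with adjusted p of up to 0.0583 without Ahr-/- replicate 2. Of the 4 genes of this list, 2 passed without Ahr+/+ replicates 1 and 2 and 3 without Ahr-/- replicates 1 and 2.

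**Figure D2:**
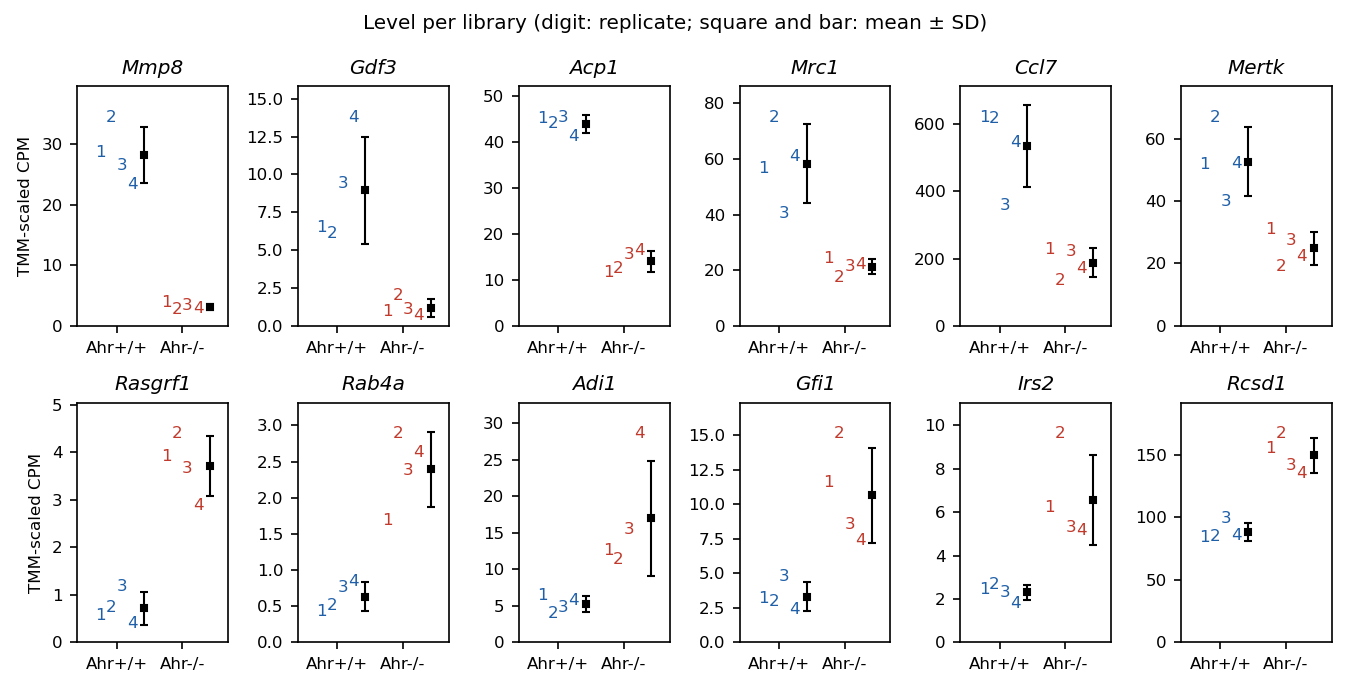
Levels (CPM, vertical, linear axes from 0) of 12 named genes in each of the 8 libraries, by genotype (horizontal), with each digit giving the replicate and the squares and bars the mean ± SD of 4 libraries. Mmp8, Gdf3, Acp1, Mrc1, Ccl7 and Mertk are lower and Rasgrf1, Rab4a, Adi1, Gfi1, Irs2 and Rcsd1 higher in Ahr-/- BMMs, and the genotypes overlap in none of them.

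Of 20 chemokines tested, 4 were lower in Ahr-/- BMMs and 0 higher, where 1.61% of all genes were lower. These 4 are CC chemokines that attract monocytes, encoded in 1 cluster on chromosome 11. Ccl2 (chr11:82035571-82037453) was at 309, 192, 253 and 219 CPM in Ahr-/- and at 682, 649.6, 408 and 625 CPM in Ahr+/+ BMMs. Ccl7 (chr11:82045712-82047525) was at 226, 135, 221 and 169.6 CPM and at 619, 615, 358 and 546 CPM. The Ahr-/- libraries of both genes were below all Ahr+/+ libraries, of which replicate 3 came closest. The log2 fold changes were -1.28 ± 0.27 for Ccl2 (adjusted p = 0.00153) and -1.51 ± 0.26 for Ccl7 (adjusted p = 0.000154). Ccl12 (chr11:82101845-82103400) and Ccl8 (chr11:82115185-82116799) had log2 fold changes of -1.34 ± 0.28 and -1.97 ± 0.37, with adjusted p of 0.00129 and 0.000400. The other 16 chemokines did not pass. Ccl3 was at 5698 ± 753 against 5436 ± 304 CPM, and Cxcl10 at 8675 ± 481 against 10146 ± 785 CPM. Over the whole list the median was -0.01. Only 2 of the 4 passed without Ahr-/- replicate 2, where the adjusted p was 0.0171 for Ccl2 and 0.0161 for Ccl12, 3 passed without Ahr+/+ replicate 2, and 0 passed without Ahr-/- replicates 1 and 2 together or within the single identifier series.

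Among receptors, some of them picked with their values in view (Ccr1, Il21r and Gpnmb), further genes were lower. Ccr1, a receptor of Ccl7 among other chemokines, was at 34.1, 31.2, 40.0 and 39.0 CPM in Ahr-/- and at 75.0, 105, 68.7 and 79.0 CPM in Ahr+/+ BMMs, with no overlap (log2 fold change of -1.18 ± 0.19, adjusted p = 4e-05). Ccr7, the receptor that guides dendritic cells to lymph nodes, had a log2 fold change of -1.99 ± 0.45 (adjusted p = 0.00318), with levels of 0.320 to 0.662 CPM without and 0.711 to 3.30 CPM with AhR. The markers of dendritic cells, of which Ccr7 is one, summed to 2.43 to 2.75 CPM in Ahr-/- and 3.05 to 6.33 CPM in Ahr+/+ BMMs, and Cd209a was at 0 throughout. The call of Ccr7 was lost without Ahr-/- replicates 1, 2 or 4 or Ahr+/+ replicates 1 or 2, and its adjusted p was then at most 0.0400. In limma-voom with the mouse as a random effect it was 0.186. Without both Ahr+/+ replicates 1 and 2 it was 0.605, with a log2 fold change of -0.91.

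In the list of Fc, complement and scavenger receptors, 2 of 22 genes tested were lower and 0 higher, where 1.61% of all genes were lower. The list's median was -0.13. Mrc1, the mannose receptor CD206, was at 24.2, 17.5, 21.4 and 22 CPM in Ahr-/- and at 56.7, 74.9, 40.4 and 60.9 CPM in Ahr+/+ BMMs. Mertk, a kinase receptor for the uptake of apoptotic cells, was at 31.0, 18.9, 27.3 and 22.1 CPM against 51.6, 66.8, 39.9 and 52.1 CPM. Neither gene's groups overlapped, and the log2 fold changes were -1.46 ± 0.20 for Mrc1 (adjusted p = 3.73e-06) and -1.09 ± 0.21 for Mertk (adjusted p = 0.0005). Mrc1 passed without Ahr+/+ replicates 1 and 2 and without Ahr-/- replicates 1 and 2, whereas the adjusted p of Mertk was 0.0586 and 0.0192. Mertk is 1 of the 10 macrophage markers, and it was the only one of them that passed. Il21r, a subunit of the IL-21 receptor, fell by 1.07 on the log2 scale (adjusted p = 3.12e-05), from 11.9 ± 1.05 to 5.69 ± 1.09 CPM. Gpnmb, a glycoprotein of macrophage lysosomes and the cell surface, was at 7592 ± 1087 CPM with and 4124 ± 529.7 CPM without AhR, a log2 fold change of -0.88 ± 0.17 (adjusted p = 0.000522).

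Cell cycle genes were the list in which most members passed. Of 20 genes tested, 15 were lower in Ahr-/- BMMs and 0 were higher, where 1.61% of all genes were lower. The median log2 fold change was -0.93, 19 of the 20 values were negative and 17 genes did not overlap between the genotypes, against 12.1% of all genes tested. Summed over the list, the level was 1002, 849, 1026 and 1019 CPM in the Ahr-/- libraries and 1341, 1499, 1177 and 1375 CPM in the Ahr+/+ libraries. The highest Ahr-/- library was thus below the lowest Ahr+/+ library, replicate 3.

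The members that fell include genes of G1, of DNA replication and of mitosis. Cdk1, the kinase that starts mitosis, was at 20.4, 13.1, 19.1 and 20.3 CPM without AhR and at 44.0, 46.4, 26.8 and 45.4 CPM with it (log2 fold change of -1.16 ± 0.19, adjusted p = 6.43e-05). All Ahr-/- libraries were below all Ahr+/+ libraries. Top2a, the topoisomerase of replicating cells, was at 52.9, 35.8, 59.5 and 56.9 CPM against 106, 117, 84.5 and 114 CPM (-1.04 ± 0.18, adjusted p = 0.000138). Aurkb and Birc5, partners in the chromosomal passenger complex, fell by 1.05 and 1.19 on the log2 scale with adjusted p of 6.69e-05 and 0.000121. Lower too were the mitotic cyclins Ccna2, Ccnb1 and Ccnb2, the G1 cyclins Ccnd1 and Ccne1, the mitotic kinases Plk1 and Bub1, the replication clamp Pcna and the helicase subunits Mcm2, Mcm5 and Mcm6. Mki67, Ccne2, Mcm3 and Mcm4 had log2 fold changes of -0.59, -0.78, -0.51 and -0.58 and did not pass. Ccnd2 had the one positive value, 0.13.

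Among the genes named for the size of their change were further genes of DNA replication and division. Knstrn, a spindle protein, was at 3.43, 3.07, 3.13 and 4.15 CPM in Ahr-/- and at 11.7, 11.7, 5.54 and 10.7 CPM in Ahr+/+ BMMs. The genotypes were separate, with a log2 fold change of -1.54 ± 0.22 (adjusted p = 1.07e-05). Polq, a DNA polymerase of break repair, and Shcbp1, a protein of dividing cells, fell by 1.49 and 1.46 on the log2 scale with adjusted p of 0.000246 and 0.00112. The call of Shcbp1 was lost without Ahr-/- replicate 2 (adjusted p = 0.0150) or Ahr+/+ replicate 2 (0.0127).

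The number of cell cycle genes that passed fell from 15 to 8 without Ahr-/- replicate 2, to 8 without Ahr+/+ replicate 2 and to 10 without Ahr+/+ replicate 4. With Ahr-/- replicates 1 and 2 left out 2 passed, and within the single identifier series 0 passed, with list medians of -0.84 and -0.80.

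**Figure D3:**
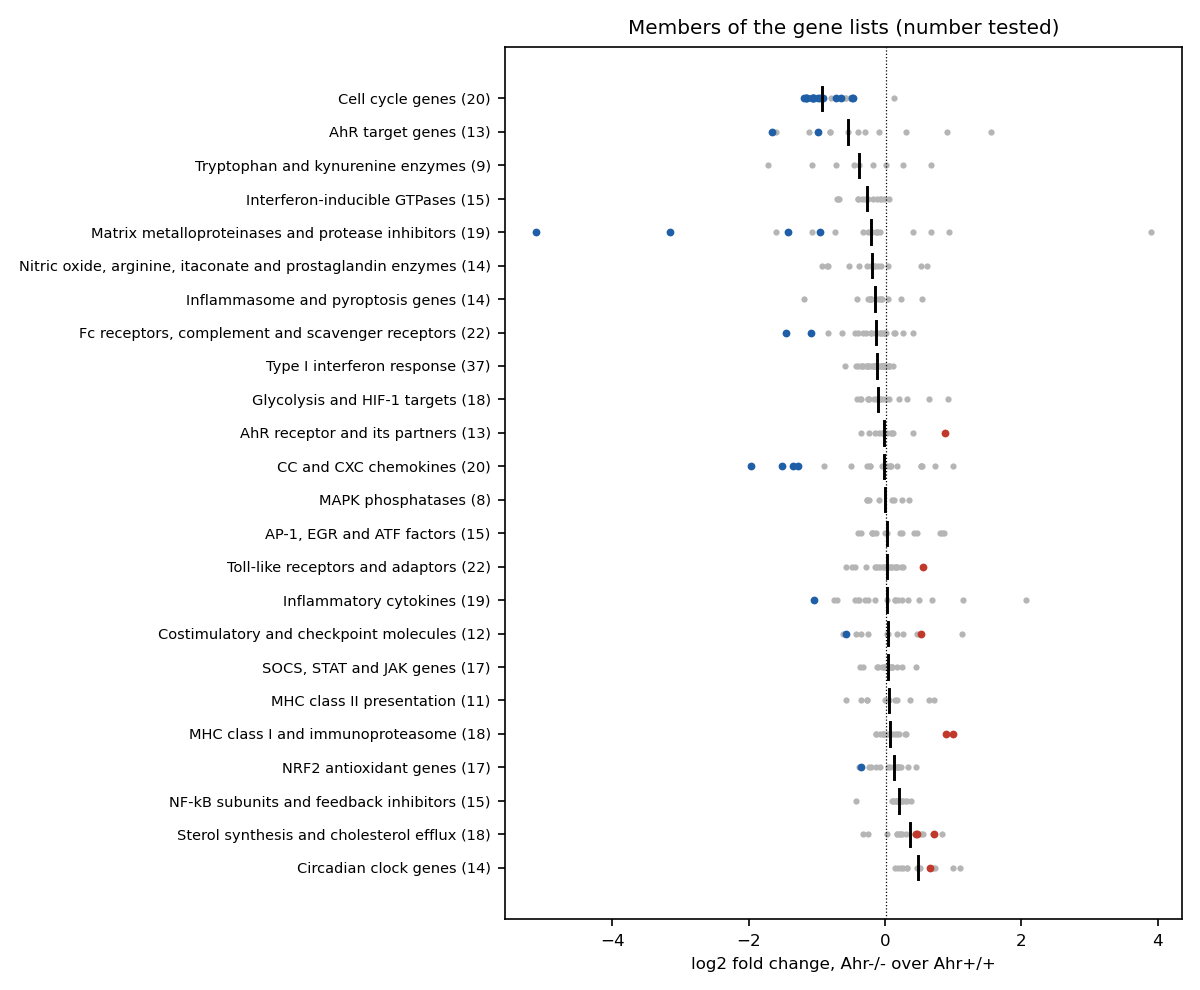
Log2 fold changes of Ahr-/- over Ahr+/+ BMMs (horizontal) of the tested genes of 24 gene lists (vertical), with 1 point per gene, DEGs in colour, a black bar at each list's median and a dotted line at the median of all genes, 0.02. The cell cycle list lies furthest to the left with a median of -0.93, and most other lists scatter around the dotted line.

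Genes of the acute response to bacteria were counted by list. Of 19 cytokines tested, 1 was lower in Ahr-/- BMMs and 0 were higher, where 1.61% of all genes were lower. This was Il1rn, the antagonist of the IL-1 receptor. It was at 539.7, 507, 497 and 516 CPM in Ahr-/- and at 1096, 1481, 668 and 982 CPM in Ahr+/+ BMMs. The Ahr-/- libraries were close together and below an Ahr+/+ group that varied widely (log2 fold change of -1.04 ± 0.25, adjusted p = 0.00671). This call held only without Ahr+/+ replicate 3, and the adjusted p reached 0.0830 without Ahr+/+ replicate 2. Tnf was at 5570.1 ± 295 CPM without and 5047 ± 347 CPM with AhR, Il6 at 475 ± 135 and 566 ± 52.3 CPM, and Il1b at 4914 ± 1086 and 4127 ± 295 CPM, all with adjusted p above 0.5. Il10, the cytokine that limits inflammation, was at 6.72 ± 2.41 and 10.9 ± 3.74 CPM (adjusted p = 0.149). The list's median was 0.04.

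Among 37 genes of the type I interferon response 0 passed in edgeR, where 2.83% of all genes passed. Of the 37, 31 had negative log2 fold changes and the median was -0.12. Rsad2 and Cmpk2, the pair of antiviral genes with the highest levels in this list, were at 14262 ± 2567 against 16162 ± 1917 CPM and at 6809 ± 1153 against 8063 ± 1027 CPM. Of 15 interferon-inducible GTPases, 0 passed and the median was -0.26. Gbp2 was at 1647 ± 172 without and 2169 ± 347 CPM with AhR (adjusted p = 0.397), and Gbp5 at 2407 ± 189 and 2601 ± 263 CPM.

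Signalling genes upstream were counted in the same way. Of 22 Toll-like receptors and adaptors, 1 was higher in Ahr-/- BMMs and 0 were lower, where 1.22% of all genes were higher. This was Ticam2, the adaptor TRAM that links TLR4 to interferon induction. It was at 39.2, 43.5, 39.9 and 38.7 CPM in Ahr-/- and at 28.3, 21.0, 32.7 and 27.7 CPM in Ahr+/+ BMMs, without overlap (log2 fold change of 0.56 ± 0.12, adjusted p = 0.00217). It did not pass without Ahr-/- replicate 2 (0.0173) or Ahr+/+ replicates 2 (0.0382) or 4 (0.0101), nor without both Ahr+/+ replicates 1 and 2 (0.184), without both Ahr-/- replicates 1 and 2 (0.0471) or in limma-voom with the mouse as a random effect (0.0106). Among the 15 NF-kB subunits and feedback inhibitors 0 passed, 1 value was negative and the median was 0.20. Of these, Nfkbia was at 1610.4, 1797, 1220.3 and 1148 CPM in Ahr-/- and at 1171, 1217, 1276 and 1188 CPM in Ahr+/+ BMMs, so that Ahr-/- replicates 1 and 2 were the high ones. Junb, a subunit of AP-1, had the same pattern, with 655 and 754 CPM in Ahr-/- replicates 1 and 2 and 374 to 422 CPM in the other 6 libraries. No call was made among the AP-1, EGR and ATF factors (15 genes tested), the MAPK phosphatases (8), the SOCS, STAT and JAK genes (17) and the inflammasome genes (14), with list medians of 0.03, 0.01, 0.04 and -0.15. Of all genes tested 2.83% passed, a share at which lists this short can hold no DEG.

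Metabolic enzymes of activated macrophages gave no calls in edgeR, where 2.83% of all genes passed. Nos2, the inducible nitric oxide synthase, was at 768, 524, 514 and 453 CPM in Ahr-/- and at 1180.1, 1245, 791 and 843 CPM in Ahr+/+ BMMs. The groups did not overlap, but the adjusted p was 0.0684. In its list of 14 enzymes, with Acod1 and Ptgs2, 0 passed and the median was -0.18, and 0 passed among 9 tryptophan and kynurenine enzymes (median -0.38) and 18 glycolysis genes (median -0.10). Il4i1, an enzyme that turns tryptophan into AhR ligands, was at 185, 215, 96.9 and 75.2 CPM in Ahr-/- and 76.5 to 114 CPM in Ahr+/+ BMMs, with replicates 1 and 2 of the Ahr-/- group the high ones (adjusted p = 0.125). 

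In the list of sterol synthesis and cholesterol efflux, 3 of 18 genes were higher in Ahr-/- BMMs and 0 lower, where 1.22% of all genes were higher. Among the 3 were Srebf2, the master regulator of the pathway, and Cyp51, a demethylase of lanosterol. Srebf2 was at 202, 222, 196 and 195 CPM without and 144, 129.8, 161 and 156 CPM with AhR. Cyp51 was at 31.0, 36.5, 41.1 and 40.6 CPM against 19.4, 17.4, 24.2 and 29.6 CPM. In both genes every Ahr-/- library was above every Ahr+/+ library, and the log2 fold changes were 0.46 ± 0.11 for Srebf2 and 0.72 ± 0.17 for Cyp51, with adjusted p of 0.00350 and 0.00512. In the list, 2 genes had negative values and the median was 0.37. The count of 3 was 0 without Ahr+/+ replicate 2, where the adjusted p was 0.0244 for Srebf2 and 0.0461 for Cyp51, and 1 without Ahr-/- replicate 2, where it was 0.0184 and 0.0146. It was 0 without Ahr+/+ replicates 1 and 2 and 1 without Ahr-/- replicates 1 and 2. Cyp51 also failed without Ahr-/- replicates 3 or 4 or Ahr+/+ replicate 1, at 0.0276 at most.

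Across the 12 lists in which no gene passed in edgeR, 41 of 174 tested genes (23.6%) had an unadjusted p below 0.05, against 19.1% of all genes. The lists differed in this. It held for 0 of 37 genes of the type I interferon response and for 7 of 15 NF-kB genes. Among the AP-1, EGR and ATF factors it held for 7 of 15, and among the nitric oxide, arginine, itaconate and prostaglandin enzymes for 6 of 14. Other tools made few calls there. DESeq2 on all 64 libraries called 2 genes, both among the nitric oxide, arginine, itaconate and prostaglandin enzymes and both lower, and so did limma on the deposited log2 values, while limma-voom called 1 glycolysis gene, which was lower. With DESeq2 on the 8 libraries alone, 1 AP-1, EGR or ATF factor, 1 gene of MHC class II presentation and 2 glycolysis genes were lower in addition to these 2.

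Antigen presentation and costimulation had calls in both directions, where 1.22% of all genes tested were higher and 1.61% lower. Of 18 MHC class I and immunoproteasome genes H2-Q7 and H2-Q6, class Ib molecules, were higher, with log2 fold changes of 1.00 ± 0.21 (adjusted p = 0.00149) and 0.89 ± 0.23 (adjusted p = 0.00955), and the list's median was 0.08. H2-Q7 was at 60.3, 82.6, 77.8 and 83.1 CPM in Ahr-/- and at 41.5, 33.7, 49.4 and 27.5 CPM in Ahr+/+ BMMs, without overlap. The genotypes of H2-Q6 overlapped, with Ahr-/- replicate 1 at 87.1 CPM and Ahr+/+ replicate 3 at 89.1 CPM. Without both Ahr+/+ replicates 1 and 2 the adjusted p was 0.0559 for H2-Q7 and 0.166 for H2-Q6. These genes are near-identical copies whose reads the counting can assign to the wrong member, and each of the calls was lost without Ahr+/+ replicate 2 (adjusted p = 0.0127 and 0.0551) or replicate 4 (0.0159 and 0.0708), and that of H2-Q6 also without Ahr-/- replicates 2, 3 or 4 or Ahr+/+ replicate 1, at 0.0357 at most. Among 11 genes of MHC class II presentation 0 passed, with a median of 0.05. Of 12 costimulatory and checkpoint molecules, Tnfsf9, the ligand of the T cell costimulator 4-1BB, was higher by 0.53 ± 0.12 on the log2 scale (adjusted p = 0.00389) and Havcr2, the checkpoint receptor TIM-3, was lower by a log2 fold change of -0.57 ± 0.14 (adjusted p = 0.00702). Tnfsf9 held only without Ahr-/- replicates 3 or 4 or Ahr+/+ replicate 3, and reached 0.0575 without Ahr-/- replicate 2. Havcr2 held only without Ahr-/- replicate 1 or Ahr+/+ replicate 3, and reached 0.0588 without Ahr+/+ replicate 2. Bhlhe40, a transcription factor that feeds into the circadian clock, was the one of 14 clock genes that passed, with a log2 fold change of 0.66 ± 0.15 (adjusted p = 0.00388, but 0.0409, 0.0291 and 0.0254 without Ahr-/- replicate 2, Ahr+/+ replicate 2 or Ahr+/+ replicate 4, and 0.0117 in limma-voom with the mouse as a random effect). All 14 values were positive with a median of 0.48, but only 1 of the 14 genes did not overlap between the genotypes, against 12.1% of all genes tested. The list's sums overlapped too, at 160 to 196 CPM in Ahr-/- and 125 to 167 CPM in Ahr+/+ libraries.

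Rasgrf1, Rab4a, Wdfy1 and Adi1 had the largest rises among the protein-coding DEGs with separate genotypes and a mean of at least 1 CPM. Rasgrf1, an exchange factor that activates RAS, was at 3.92, 4.39, 3.66 and 2.88 CPM in Ahr-/- and at 0.562, 0.735, 1.18 and 0.388 CPM in Ahr+/+ BMMs. Rab4a, a small GTPase of endosome recycling, was at 1.68, 2.88, 2.38 and 2.62 CPM against 0.422, 0.509, 0.761 and 0.841 CPM. The genotypes were separate in both, with log2 fold changes of 2.38 ± 0.38 (adjusted p = 4.04e-05) and 1.92 ± 0.31 (adjusted p = 4.09e-05). Wdfy1, an endosomal protein that takes part in TLR3 and TLR4 signalling, had a log2 fold change of 1.84 ± 0.32 (adjusted p = 0.000141) and Adi1, an enzyme of methionine salvage, one of 1.7 ± 0.22 (adjusted p = 1.29e-06). Without Ahr+/+ replicates 1 and 2 Adi1 passed, and Rasgrf1, Rab4a and Wdfy1 had adjusted p of 0.0131, 0.0286 and 0.0265. The single largest rise, 4.46 on the log2 scale, was of the processed pseudogene Gm15433, whose levels were 0.137 to 0.685 CPM without and 0 to 0.0566 CPM with AhR, too few reads to size it.

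Gfi1, a transcriptional repressor of myeloid cells, was at 11.6, 15.1, 8.56 and 7.41 CPM in Ahr-/- and at 3.16, 2.94, 4.78 and 2.39 CPM in Ahr+/+ BMMs. Irs2, an adaptor of the insulin and IL-4 receptors, was at 6.23, 9.61, 5.29 and 5.18 CPM against 2.46, 2.66, 2.28 and 1.81 CPM. Every Ahr-/- library was above every Ahr+/+ library in both, and Ahr-/- replicates 1 and 2 were the highest. The log2 fold changes were 1.69 ± 0.29 (adjusted p = 0.000141) and 1.52 ± 0.24 (adjusted p = 4.04e-05). Without Ahr-/- replicates 1 and 2 their adjusted p were 0.0322 and 0.0134, and without Ahr+/+ replicates 1 and 2 Irs2 passed and Gfi1 was at 0.0286. Sele, the adhesion molecule E-selectin, rose by 1.37 ± 0.25 on the log2 scale (adjusted p = 0.00051), from 3.08 ± 0.520 to 7.96 ± 0.846 CPM, and the coagulation factor gene F5 by 1.45 ± 0.30 (adjusted p = 0.00122, and 0.0124 without Ahr+/+ replicate 4). Also higher were Ust, a sulfotransferase (1.20 ± 0.18, adjusted p = 2.35e-05), Fam83h (1.22 ± 0.24, adjusted p = 0.000844, and 0.0173 in limma-voom with the mouse as a random effect), the anchoring filament protein gene Lad1 (1.25 ± 0.26, adjusted p = 0.00162) and Plat, the tissue plasminogen activator (1.25 ± 0.29, adjusted p = 0.00366). Lad1 was at 37.6 and 35.6 CPM in Ahr-/- replicates 1 and 2 and at 21.8 and 20.3 CPM in replicates 3 and 4, and Plat at 27.6 and 36.7 against 18.1 and 15.7 CPM. Their calls were lost without Ahr-/- replicate 1 (adjusted p = 0.0101 and 0.0122), Ahr-/- replicate 2 (0.0130 and 0.0465) or Ahr+/+ replicate 2 (0.0102 and 0.0237), and that of Plat also without Ahr+/+ replicates 1 (0.0171) or 4 (0.0219). Among the lower genes Apol7c, an apolipoprotein L gene, fell by 1.82 on the log2 scale (adjusted p = 0.00366) and failed the threshold without Ahr-/- replicates 2, 3 or 4 or Ahr+/+ replicates 1 or 2, at 0.0274 at most.

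Because the deleted allele came with the DNA around it, DEGs were counted by their distance from Ahr. Within 5 Mb, 4 of 36 tested genes were DEGs (11.1%), between 5 and 10 Mb 1 of 17, between 10 and 20 Mb 1 of 70 and on the rest of chromosome 12 8 of 401 (2%). On the other chromosomes it was 2.83% of the genes. Within 10 Mb there were 5 DEGs among 53 genes (9.43%), apart from Ahr itself. An effect of the deletion and one of the DNA that flanks it in the Ahr-/- mice cannot be told apart for these genes. For genes elsewhere, the deletion and the other origin of the Ahr-/- mice, from another supplier and crossed back, cannot be told apart either.

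The DEG with the smallest adjusted p of all 14537 genes, Acp1, was one of them. Acp1 (chr12:30893326-30911589, minus strand), a low molecular weight tyrosine phosphatase, was at 11.7, 12.5, 15.5 and 16.5 CPM in Ahr-/- and at 45.1, 44.2, 45.4 and 41.2 CPM in Ahr+/+ BMMs. Both groups were tight and far apart (log2 fold change of -1.65 ± 0.11, adjusted p = 9.32e-17). Hdac9 (chr12:34047580-34917095, minus strand), a class II histone deacetylase, was at 5.92, 6.27, 8.73 and 6.39 CPM against 15.7, 16.5, 16.7 and 16.6 CPM (-1.25 ± 0.19, adjusted p = 2.86e-05, and 0.0130 without Ahr-/- replicates 1 and 2). Arl4a (chr12:40005447-40038025), a small GTPase, and Scin (chr12:40059769-40134228) are neighbours 4.51 and 4.58 Mb from Ahr, and Arl4a fell by 0.57 on the log2 scale (adjusted p = 0.00965). The one higher gene was Adi1 (chr12:28675231-28682175), at 12.6, 11.3, 15.5 and 28.6 CPM against 6.47, 4.02, 4.78 and 5.69 CPM. With Ahr-/- replicates 1, 2 or 3 or Ahr+/+ replicates 1, 2 or 4 left out, 3 of the 5 passed. Arl4a was among the lost ones in each of these cases, with an adjusted p of up to 0.126 without Ahr-/- replicate 2.

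**Figure D4:**
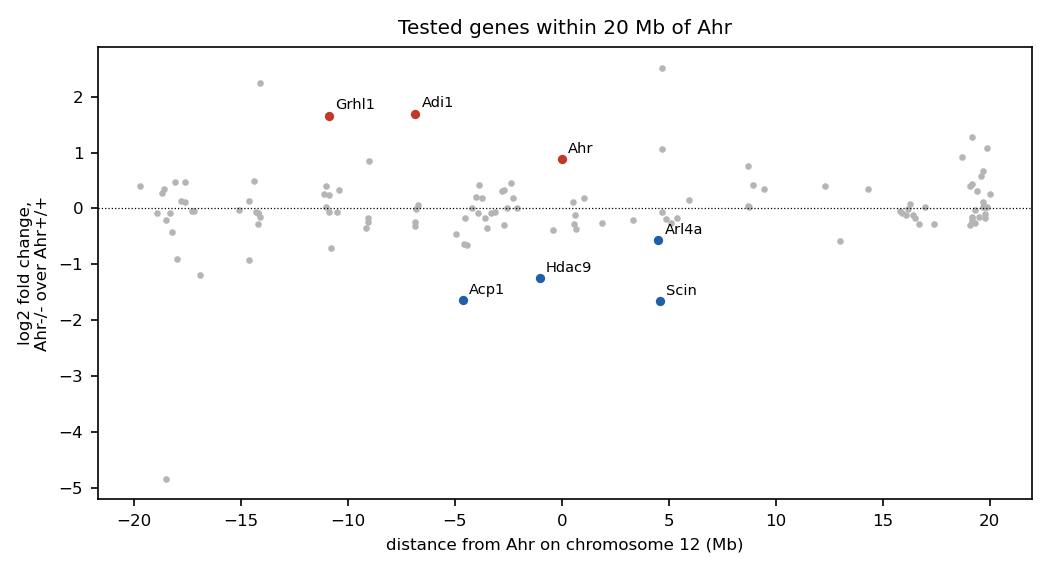
Log2 fold change of Ahr-/- over Ahr+/+ BMMs (vertical) of the tested genes within 20 Mb of Ahr on chromosome 12, by distance from the Ahr gene in Mb (horizontal), 1 point per gene, with DEGs coloured and named, Ahr itself among them. Acp1, Hdac9, Arl4a and Scin lie below 0 within 5 Mb of Ahr, and Adi1 and Grhl1 lie above 0 further away.

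The same genotype difference was then read in the other groups, which are separate cultures of the same mice. Of the 234 genes lower in Ahr-/- BMMs, 96.2% had the same sign without hk S.E. at 3 h, where 97 of them were DEGs and the median log2 fold change was -0.62. Of the 177 higher genes 79.7% had the same sign there, 17 were DEGs and the median was 0.10. In that comparison 1.21% of all genes were DEGs. With hk S.E. for 3 h after pre-exposure to BaP (benzo[a]pyrene, a ligand from combustion) or to I3C (indole-3-carbinol, a ligand precursor from cabbage plants), at least 99.4% of the genes of either direction kept their sign, in comparisons where 4.88% and 2.85% of all genes were DEGs. In total 234 genes, 91 higher and 143 lower, were DEGs with the same sign in all 3 treatments with hk S.E. at 3 h. At 20 h with hk S.E., where 12.5% of all genes were DEGs, 60.5% of the higher and 58.5% of the lower genes had the same sign, with medians of 0.07 and -0.10. Among the higher genes 28 were DEGs with the same and 7 with the opposite sign at 20 h, and among the lower genes 46 and 11.

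A set of 24 genes passed with the same sign in all 5 genotype comparisons, of which the one at 20 h also sets 2 series of library identifiers against each other. It holds Ahr, Acp1, Hdac9, Mmp8, Spint1, Gdf3, Mrc1, Ccl7, Ccr1, Ccr7, Il1rn, Il21r, Apol7c, Rab4a and Wdfy1 named above. The others are the lysosomal proteins Ctsl and Gpnmb, the mitotic regulators Cdc25b, Tpx2 and Gpsm2, the DNA repair helicase Zranb3, the NAD kinase Nadk, the glycerol and water channel Aqp9 and the pseudogene Gm6472. Ahr, Rab4a, Wdfy1, Nadk, Aqp9 and Gm6472 were higher and the rest lower without AhR. The log2 fold change of Mmp8 was -3.42 without hk S.E., -3.15 with it, -3.95 and -3.56 after BaP and I3C and -3.32 at 20 h, and Acp1 stayed between -1.34 and -1.66.

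Whether activation changed the effect of the genotype was tested by comparing the difference with hk S.E. with the one without it at 3 h. In edgeR 2 genes passed (0.0138%), while 867 had an unadjusted p below 0.05. The count was 17 with DESeq2, 16 with limma-voom and the mouse as a random effect and 8 with limma on the deposited log2 values. Rcsd1, a regulator of actin capping, rose with activation in both genotypes, but further in Ahr-/- BMMs. Its level with hk S.E. was 155, 167, 141 and 135 CPM in Ahr-/- and 83.9, 84.6, 98.9 and 85.6 CPM in Ahr+/+ BMMs, and without hk S.E. 31.5 ± 1.84 and 33.1 ± 1.41 CPM. The genotype effect was thus 0.76 with and -0.07 without hk S.E., a difference of 0.83 ± 0.13 (adjusted p = 0.00057). Enc1, an actin-binding adaptor, had the reverse pattern, with 114 ± 9.49 against 61.3 ± 4.22 CPM without hk S.E. and 29.5 ± 3.70 against 31.9 ± 5.41 CPM with it, a difference of -1.01 ± 0.17 (adjusted p = 0.00323). Of these, 1 passed without Ahr-/- replicates 1 or 2, without Ahr+/+ replicates 2 or 4, or without replicate 2 of the Ahr-/- or replicates 1 or 4 of the Ahr+/+ cultures that had no hk S.E., and 9 genes passed without Ahr+/+ replicate 3. Sele and Gfi1 were at 0 or near it before activation, at most 0.181 CPM in any library.

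The effect of the genotype was also compared between time points. At 20 h with hk S.E. all 4 Ahr-/- libraries had one series of library identifiers and all 4 Ahr+/+ libraries another, so that genotype and identifier series cannot be told apart within that time point. Between 20 h and 3 h with hk S.E. the genotype effect differed for 885 genes (6.09%), more positive at 20 h for 373 and more negative for 512. Those with the smallest p were Metrnl, a secreted factor, Tmem39a, a membrane protein of the endoplasmic reticulum, Plin2, the coat protein of lipid droplets, the transcription factor Zhx2 and Inafm1. Plin2 was at 1381, 1218, 1192 and 1194 CPM in Ahr-/- and at 1664, 1611, 1544 and 1456 CPM in Ahr+/+ BMMs at 3 h, a log2 fold change of -0.33 that did not pass (adjusted p = 0.0276). At 20 h it was at 674 ± 59.2 against 1860 ± 218 CPM, with a log2 fold change of -1.47. Metrnl was at 241 ± 30.5 against 224 ± 24.3 CPM at 3 h and at 117 ± 8.94 against 252 ± 16.2 CPM at 20 h. Inafm1 changed sides, with a log2 fold change of 0.82 ± 0.15 at 3 h (adjusted p = 0.000209) and -0.68 at 20 h. With the identifier series as a term in the fit of all 64 libraries 178 genes passed this test, and without Ahr-/- replicates 1 and 2 122 did.

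The cell cycle genes were among those that changed with time. Their median genotype effect at 3 h was -0.93 with and -0.84 without hk S.E., with 15 and 12 genes lower. Of all 14537 genes tested, 234 and 141 were lower in these comparisons. Neither Rcsd1 nor Enc1, the genes of the test by activation, is in the list. At 20 h with hk S.E. the median was -0.04, with 1 gene lower, Ccnd1, and 4 higher, where 1075 of all genes were lower and 736 higher. The difference between the time points passed for 7 of the 20 genes, Mki67, Ccnb1, Mcm2, Mcm3, Mcm4, Mcm5 and Mcm6, where it passed for 6.09% of all genes. Cdk1 was at 18.2 ± 3.45 against 40.7 ± 9.30 CPM at 3 h and at 4.66 ± 0.882 against 5.73 ± 0.323 CPM at 20 h, and its own difference between the time points did not pass (adjusted p = 0.0321). Outside the list, the genotype effect of Adi1 also differed by time, with levels at 20 h of 27.5 ± 3.23 against 25.4 ± 2.99 CPM (adjusted p of the difference = 0.000197).

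**Figure D5:**
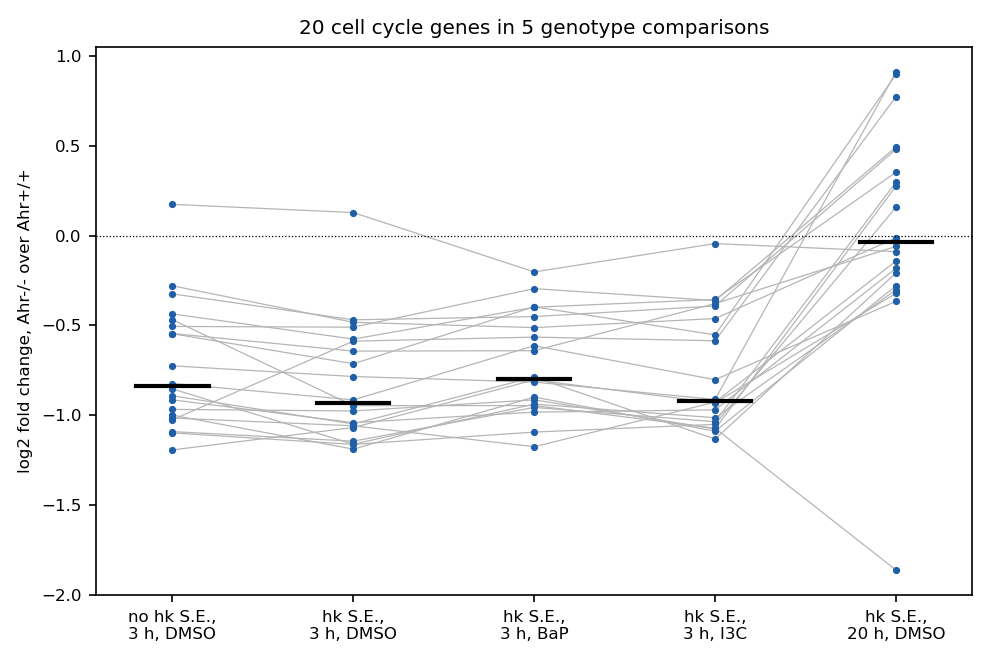
Log2 fold change of Ahr-/- over Ahr+/+ BMMs (vertical) of the 20 cell cycle genes in 5 genotype comparisons (horizontal), with 1 point per gene, grey lines joining a gene's values and black bars at the medians. The medians lie at -0.84 without hk S.E. and at -0.93 with it at 3 h, and at -0.04 with hk S.E. at 20 h, where Ccnd1 is the lowest point.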

How the data were processed

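RNA-seq counts per gene and library were analysed. The authors aligned paired reads of stranded mRNA libraries to mm10 with HISAT2 2.1.0 and counted pairs on GENCODE M22 exons with HTSeq 0.9.1, and deposited these raw counts unchanged. A table of log2 values that the authors deposited, from DESeq2's variance-stabilizing transformation (VST), served as an alternative. The 5 entries per file that name no gene held 20.5% to 24.8% of read pairs in the 8 libraries and were left out.

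All 64 libraries, in 16 groups, were fitted with edgeR 4.0.16 in R 4.3.3 (TMM scaling, filterByExpr with a min.count of 10, quasi-likelihood F test, 48 residual and 5.06 prior degrees of freedom), so that all groups share 1 estimate of the spread. This fit treats the 8 cultures of a mouse as independent, and limma-voom with the mouse as a random effect (within-mouse correlation 0.282) does not. P-values were adjusted by Benjamini-Hochberg over 14537 genes with a threshold of 0.01. CPM are TMM-scaled and carry SDs over 4 libraries, and SEs are from the F statistic. Positions are from GENCODE M21, of the same build. Alternatives used DESeq2 1.42.0, limma 3.58.1, other scaling and filters, the series of library identifiers, replicate blocks and leaving out libraries, of which the pairs of Ahr-/- replicates were added after the data were seen. Replicate numbers of the genotypes belong to different mice. P-values of the edgeR fit rest on the spread between libraries within a group, pooled over the 16 groups, and not on these mice alone. The tests by activation and by time compare cultures of the same mice without pairing them.

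Genes named are Ahr and Nnt, the 12 protein-coding DEGs with the largest change in each direction (no overlap between genotypes, mean of at least 1 CPM), up to 4 DEGs per direction in each of 25 gene lists or, where none passed, the 2 with the highest level, DEGs within 10 Mb of Ahr, and up to 5 genes per test of a difference. Genes named outside these rules were picked with their values in view, and some genes that the rules name are not reported here. The members and lists were chosen with earlier results of these data known. Of the lists' 400 tested genes 9 were higher and 30 lower, and 12 of the 25 lists held no DEG. Simulated counts of 14537 genes, with the Ahr+/+ means and the depths of this comparison and 200 genes changed, were tested with the same script. The test called 27% of genes changed by 0.5, 54.3% by 1 and 79.1% by 2 on the log2 scale. Of 110 calls 2 were false. A gene that did not pass is thus not shown to be equal. The simulation held no correlation within a mouse, no split among the Ahr-/- replicates and no identifier series. Its rates therefore need not hold for the real libraries.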

Additional observations from a re-analysis of the deposited data

Results flagged for a closer look

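In 10 of the 162 sets of 4 libraries examined, which are the Ahr-/- and the Ahr+/+ libraries of each of the 81 genes named, 1 library was far from the other 3 by Dixon's test, where chance gives about 1 in 20. Ahr+/+ replicate 3 was the far one for Cdk1 (26.8 CPM), Knstrn (5.54), Plat (15) and Rcsd1 (98.9), and in each of these it lay on the side of the Ahr-/- libraries. Ahr+/+ replicate 2 was high for Dusp16 (168 CPM) and Socs3 (1610 CPM), neither of which passed the test between the genotypes. Ahr+/+ replicate 1 was low for Ust (1.97 CPM), replicate 4 was high for Xist (366 CPM), Ahr-/- replicate 3 was high for Hdac9 (8.73 CPM) and Ahr-/- replicate 1 for Plin2 (1380 CPM).

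The genotype effect at 3 h differed between activated and unactivated BMMs for 2 genes, Rcsd1 (difference of 0.83 on the log2 scale) and Enc1 (-1.01). It differed between 20 h and 3 h with hk S.E. for 885 genes, of which 19 are among those named. Genes higher in Ahr-/- BMMs at 3 h whose effect had turned negative or near 0 at 20 h were Ticam2 (difference of -1.02), H2-Q7 (-1.13), Tnfsf9 (-0.77), Bhlhe40 (-1.10), Adi1 (-1.58), F5 (-1.82), Zhx2 (-1.02) and Inafm1 (-1.50), and Tmem39a (-0.97), Metrnl (-1.22) and Il4i1 (-1.85) were lower at 20 h, from values at 3 h that did not pass. Atf3 (-0.71), Plin2 (-1.13) and Hdac9 (-1.40) were more negative at 20 h, whereas Knstrn (2.09) and Polq (1.88), lower at 3 h, had positive values at 20 h that rest on under 1 CPM in both genotypes. Rab4a was further above Ahr+/+ at 20 h (1.76). For Scin (-5.51) and Apol7c (-4.27) the size depends on the prior count, because the Ahr-/- libraries held at most 0.0317 and 0.147 CPM at 20 h.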

How the results depend on the processing

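The 411 DEGs became 903 at a threshold of 0.05, 208 with the identifier series as a term, 49 with edgeR on the 8 libraries alone and 18 without both Ahr+/+ libraries of the other identifier series, where 9 of the 53 named DEGs still passed (Mrc1, Mmp8, Spint1, Adi1, Irs2, Gdf3, Acp1, Hdac9 and Rcsd1). A replicate block on the 8 libraries left 2 (Mmp8 and Acp1), but same-numbered libraries of the genotypes share only a number, and their deviations from the group means correlated between -0.0439 and 0.0357. The block on all 64 libraries gave 513, of which 410 were shared. Without Ahr-/- replicates 1 and 2 there were 47, without replicates 3 and 4 509, and leaving out 1 library gave 122 to 507. DESeq2 gave 567 on 64 and 542 on 8 libraries, of which 403 of the former were shared, and other scalings, filters, limma and voom gave 280 to 498. The test by activation (2) gave 17 with DESeq2, 16 with limma-voom, 8 with limma on the VST values, 5 at a threshold of 0.05, 1 with the identifier series or without Ahr-/- replicates 3 and 4, and 1 to 9 with a library left out. The test by time (885) gave 1566 with limma-voom, 564 without the filter, 1913 at 0.05, 178 with the identifier series and 122 without Ahr-/- replicates 1 and 2. The count of DEGs within 10 Mb of Ahr (5) was 3 with DESeq2's size factors, without the filter, with the identifier series and without both Ahr+/+ libraries, 2 with edgeR on 8 libraries or without Ahr-/- replicates 1 and 2, 1 with the block on 8 libraries and 3 to 5 with a library left out. The share of DEGs with the same sign without hk S.E. (89.1%) was 85.5% at 0.05, and the share of lower DEGs with GCGTG (45.9%) was 32.3% with edgeR on 8 libraries and 0% with the block on 8 libraries. Of 81 genes named, 14 changed sign under some alternative, 0 of them a DEG. With the mouse as a random effect in limma-voom, Scin, Ticam2, Mmp27, Bhlhe40, Fam83h and Ccr7 lost their calls. The causes were not tested. Fits on 8 libraries or with libraries left out have fewer samples, and their counts of DEGs lay between 2 and 542. Depth limits genes under about 1 CPM, such as Scin and Spint1.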

Other observations

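Across all 64 libraries, 4 genes, picked with their values in view, differed between the Ahr-/- mice in every treatment or nearly so. Serpinb2, a plasminogen activator inhibitor that activated macrophages make in quantity, was at 0 in 8 of 8 libraries of Ahr-/- mouse 3 and in 6 of 8 of mouse 4, with at most 0.0513 CPM. Over the 8 libraries of each of the other Ahr-/- mice its median was 7.28 and 10.4 CPM, and in the Ahr+/+ mice it was 20.6 to 28.8 CPM with maxima of 270 to 402 CPM. Timp3, an inhibitor of metalloproteinases, went the other way, with medians of 0.484 and 0.505 CPM in Ahr-/- mice 3 and 4 and at most 0.0826 CPM in the other 6 mice. Col1a1 and Col1a2, the chains of type I collagen, had medians of 1.43 to 1.76 CPM in Ahr-/- mice 3 and 4 and of at most 0.386 CPM in the others. Serpinb2 is also in the list of AhR targets, and its difference between the genotypes at 3 h with hk S.E., from 6.79, 10.7, 0 and 0 CPM against 11.9, 12.4, 17.9 and 11.7 CPM, did not pass (adjusted p = 0.510). What sets these mice apart was not tested.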
